A study of Rattus norvegicus with 11 samples.

Results

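The RNA levels of 10 acute phase protein genes were followed in the ileum of rats with severe acute pancreatitis (SAP), with and without the monoacylglycerol lipase inhibitor JZL184. The genes were Serpina3n, Lcn2, Orm1, Ptx3, Hp, A2m, Fga, Fgb, Fgg and Cp. They were chosen from measured values of these same libraries, as acute phase protein genes, by matching their symbols in the deposited tables. All 10 were found among the 24481 genes with read counts and among the 24205 genes with FPKM (fragments per length of transcript and per depth of the library). Their values below are therefore a description, and an adjusted p beside a member is the value of a fit across all genes, not independent evidence. Only RNA was measured, so no value speaks of protein in the gut or in plasma.

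Male Sprague-Dawley rats aged 6 to 8 weeks formed 3 groups. In the SAP group, 3% sodium taurocholate had been pushed back into the pancreatic duct, and vehicle was injected into the peritoneum. The JZL184 group had the same pancreatitis and received JZL184 at 10 mg/kg by the same route. The titles of the SAP libraries name oil, where the study's methods give a vehicle of saline, ethanol and Tween. For the control group the labels name a control plasmid as treatment, where the study's methods give the vehicle alone, and the labels do not say whether these rats were operated on. The study's methods place the grouping for these injections 24 h after surgery, and ileum was taken 24 h after the injection. There were 3 control libraries, 4 SAP libraries and 4 JZL184 libraries. The labels give the cells as intestinal epithelial, but the RNA came from ileum tissue, and the smooth muscle genes Myh11 and Des reached 341.16 and 729.96 FPKM in it. In such bulk samples, fewer cells of a type and less RNA per cell cannot be told apart.

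Between 26341299 and 33847135 reads per library lay on genes. The counts of control libraries 1 and 2 differed by more than counting error alone gives but far less than those of any other pair (chi-square per gene 2.81, against 77.5 to 563 in the other pairs within a group), and the libraries were counted as 1 sample, which left n = 2 in the control group. SAP library 2 had 20 reads on Y-linked genes, where the other libraries had 1222 to 4665, although all rats are described as male. SAP libraries 1 and 2 stood apart from SAP libraries 3 and 4 (chi-square per gene of 85.5 and 99.1 within these pairs, 337 to 563 between them). JZL184 library 3 was low in several genes of mature ileal enterocytes, with 79.92 FPKM of Fabp6, the ileal bile acid binding protein, against 409.74 to 21819 in all the others, but not in the general epithelial genes Epcam (3248.56 FPKM) and Cdh1 (157.5). Where leaving these libraries out moved a value of a member by much, the value without them is given.

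Acute phase proteins are secreted plasma proteins whose levels change in inflammation. The liver makes most of them, under interleukin-6, which acts through gp130 and the transcription factor STAT3, and under interleukin-1, which acts through C/EBP and NF-kB factors. Several are also made by epithelial cells, macrophages and neutrophils, where they bind iron, inhibit proteases or mark microbes. In the gut, lipocalin 2 is known as a product of inflamed epithelium and of neutrophil granules.

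The promoters of Serpina3n, which had the highest log2 fold change of the members in SAP against control, and of Orm1 and Lcn2, which had the highest in both comparisons of JZL184, are shown because the factors named above are known to bind short motifs. Each runs 5′ to 3′ on the strand of the gene, from 250 bases before to 50 bases after the start of the gene, as RefSeq gives it in the GRCr8 build, which is not the mRatBN7.2 build that the authors aligned to. Serpina3n lies at chr6:129088142-129088441 (plus strand), Lcn2 at chr3:36081731-36082030 (minus strand) and Orm1 at chr5:81788259-81788558 (plus strand). Capitals mark letters that match one of 4 motifs on either strand.
Serpina3n: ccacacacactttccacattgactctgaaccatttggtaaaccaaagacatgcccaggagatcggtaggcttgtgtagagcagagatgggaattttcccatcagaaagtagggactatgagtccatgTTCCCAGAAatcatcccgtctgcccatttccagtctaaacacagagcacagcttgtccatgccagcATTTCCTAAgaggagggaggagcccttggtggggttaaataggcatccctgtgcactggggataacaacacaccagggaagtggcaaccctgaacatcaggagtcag
Lcn2: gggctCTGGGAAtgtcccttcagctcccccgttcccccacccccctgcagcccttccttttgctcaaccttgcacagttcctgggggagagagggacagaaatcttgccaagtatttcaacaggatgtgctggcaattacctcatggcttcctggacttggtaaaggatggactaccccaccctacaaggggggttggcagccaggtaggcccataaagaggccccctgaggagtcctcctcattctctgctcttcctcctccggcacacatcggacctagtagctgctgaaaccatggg
Orm1: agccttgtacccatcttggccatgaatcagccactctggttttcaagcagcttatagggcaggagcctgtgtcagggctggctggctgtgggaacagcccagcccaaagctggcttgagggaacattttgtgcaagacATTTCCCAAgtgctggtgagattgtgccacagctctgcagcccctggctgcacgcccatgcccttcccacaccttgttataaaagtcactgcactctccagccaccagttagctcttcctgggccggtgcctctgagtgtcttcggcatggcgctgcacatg
The motifs were TTCNNNGAA for STAT3, CTGGGAA for the type II IL-6 element, TTNNGNAAT for C/EBP and GGGANTTTC for NF-kB. In Serpina3n, the first capitals match the STAT3 motif, begin 123 bases before the gene start and overlap a match to the IL-6 element on the other strand, and the second capitals, 57 bases before the start, match the C/EBP motif. Lcn2 held 1 IL-6 element, 245 bases before its start, and Orm1 held 1 C/EBP motif, 112 bases before. Such matches are not rare. Of 33465 promoter windows in the table, 8.875% held the STAT3 motif, 11.27% the IL-6 element, 12.3% the C/EBP motif and 1.147% the NF-kB motif. Promoters were found for 8 of the 10 members, not for A2m and Hp, and Ptx3 and Cp held none of the motifs in their windows. A match describes letters only, and binding was not measured.

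Serpina3n, on chromosome 6, encodes a secreted inhibitor of serine proteases related to human antichymotrypsin. Its FPKM was 0.47, 0.41 and 1.06 in control libraries 1 to 3, then 87.55, 86.53, 62.25 and 22.44 in SAP libraries 1 to 4, and 58.83, 30.52, 13.9 and 24.96 in JZL184 libraries 1 to 4. Every SAP and JZL184 library lay above every control library, while SAP and JZL184 overlapped. The log2 fold change of its read counts was 6.26 between SAP and control (SE 0.75, edgeR adjusted p = 0.121), which was the highest of the members in that comparison, and -0.81 between JZL184 and SAP (SE 0.47, edgeR adjusted p = 0.328). The latter was -0.33 without SAP libraries 1 and 2 and -0.55 without JZL184 library 3. A2m, on chromosome 4, encodes alpha-2-macroglobulin, a broad protease trap that is a major acute phase protein of rats. Its level was low throughout (33 to 364 reads per library), at 0.19, 0.16 and 0.24 FPKM in control, 0.53, 0.53, 0.56 and 0.31 in SAP and 1.61, 1.32, 0.73 and 0.91 in JZL184. The 3 groups did not overlap, with control lowest and JZL184 highest. A2m differed between JZL184 and SAP by a log2 fold change of 1.43 (SE 0.34, edgeR adjusted p = 0.0909, DESeq2 adjusted p = 0.00502).

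Lcn2, on chromosome 3, encodes lipocalin 2, which binds bacterial siderophores and so withholds iron. It had the highest FPKM of the members in the JZL184 group. Control libraries 1 to 3 had 1.57, 2.07 and 3.25 FPKM, SAP libraries 1 to 4 had 100.3, 29.28, 76.6 and 51.52, and JZL184 libraries 1 to 4 had 100.35, 372.23, 264.22 and 504.36. The groups did not overlap, but SAP library 1 and JZL184 library 1 were nearly equal. The share of genes in the table with a lower FPKM than Lcn2 was 63.2% to 70.0% in control, 90.9% to 96.9% in SAP and 96.7% to 99.2% in JZL184. Against control, the log2 fold change was 4.51 in SAP (SE 0.64, edgeR adjusted p = 0.150) and 6.95 in JZL184 (SE 0.87, edgeR adjusted p = 0.0155). Between JZL184 and SAP it was 2.47 (SE 0.55, edgeR adjusted p = 0.0856, DESeq2 adjusted p = 0.000605).

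Orm1, on chromosome 5, encodes alpha-1-acid glycoprotein, a plasma carrier of small molecules. It was nearly silent in control ileum, with 1, 3 and 3 reads (0.04, 0.12 and 0.12 FPKM). SAP libraries 1 to 4 had 6.2, 0.86, 4.29 and 1.87 FPKM and JZL184 libraries 1 to 4 had 11.84, 34.07, 12.08 and 35.33, so that the 3 groups were fully apart. Because the control libraries held 7 reads in all, the ratio per read counted is imprecise, at 35.0 (95% exact interval 16.8 to 87.7) for SAP over control and 240 (116 to 598) for JZL184 over control, and these intervals cover counting error only. JZL184 and SAP differed by a log2 fold change of 3.05 (SE 0.67, edgeR adjusted p = 0.0851, DESeq2 adjusted p = 0.000199).

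Hp, on chromosome 19, encodes haptoglobin, which captures free haemoglobin. Its FPKM was 0.34, 0.46 and 0.5 in control, 4.23, 0.61, 5.57 and 2.66 in SAP and 10.5, 31.47, 6.38 and 6.06 in JZL184. SAP library 2 lay just above the control libraries, and JZL184 library 2 stood well above the other JZL184 libraries, which had not been the case for Lcn2 and Orm1. Between JZL184 and SAP the log2 fold change of Hp was 2.28 (SE 0.76, edgeR adjusted p = 0.151, DESeq2 adjusted p = 0.0234), and 1.31 without JZL184 library 2. Cp, on chromosome 2, encodes ceruloplasmin, a copper-bearing ferroxidase. It started higher than most members, at 1.44, 1.21 and 3.11 FPKM in control, and reached 7.75, 15.05, 4.63 and 3.79 in SAP and 4.69, 4.4, 4.91 and 6.9 in JZL184. Control library 3 came close to SAP library 4, and SAP and JZL184 overlapped. The log2 fold change of Cp against control was 1.63 in SAP (SE 0.61, edgeR adjusted p = 0.459), 0.88 there without SAP libraries 1 and 2, and 1.23 in JZL184 (SE 0.40, edgeR adjusted p = 0.109). Between JZL184 and SAP it was -0.37 (SE 0.39, edgeR adjusted p = 0.587) and turned to 0.12 without SAP library 2.

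Ptx3, on chromosome 2, encodes the long pentraxin 3, a soluble pattern recognition protein that is made outside the liver. Its FPKM was 0.32, 0.44 and 1.1 in control libraries 1 to 3, 31.08, 12.58, 38.67 and 16.44 in SAP libraries 1 to 4, and 58.63, 15.15, 33.95 and 20.41 in JZL184 libraries 1 to 4. All SAP and JZL184 libraries were over 10-fold above the highest control library, and the ranges of SAP and JZL184 nearly coincided. Accordingly the log2 fold change was 4.93 for SAP against control (SE 0.74, edgeR adjusted p = 0.176), 5.40 for JZL184 against control (SE 0.72, edgeR adjusted p = 0.0174) and 0.49 for JZL184 against SAP (SE 0.45, edgeR adjusted p = 0.530).

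**Figure D1:**
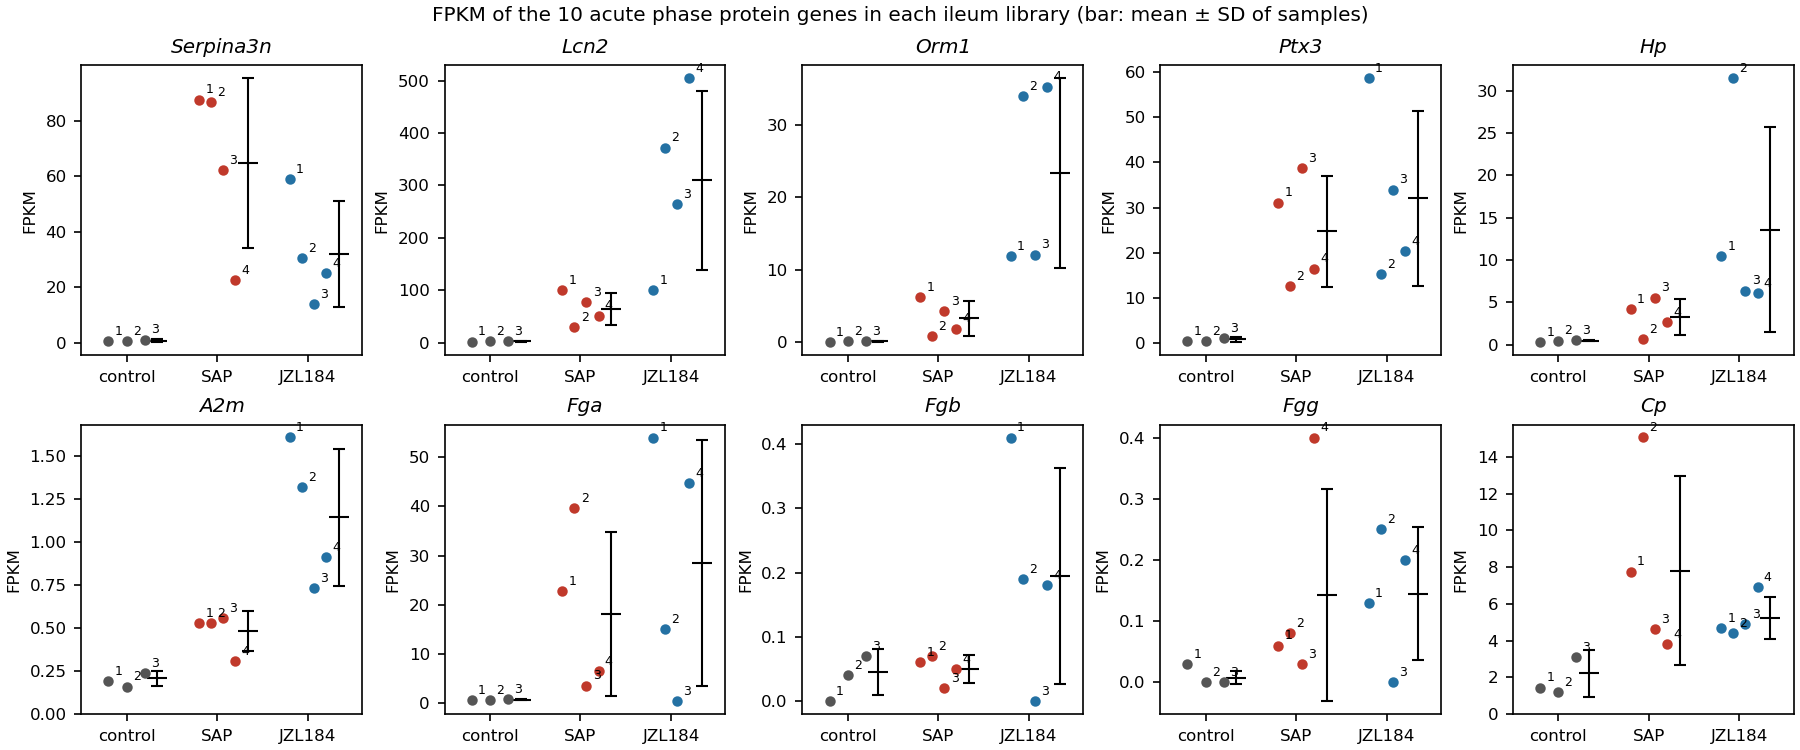
FPKM of the 10 members (one panel each, linear axis) in the 3 control, 4 SAP and 4 JZL184 libraries, numbered as in the text, with the mean and SD of each group beside the points (control n = 2 after averaging libraries 1 and 2). Lcn2 and Orm1 step up from control to SAP and again to JZL184, Serpina3n and Ptx3 are high in both pancreatitis groups, and Fga falls back to 0.36 in JZL184 library 3.

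The 3 chains of fibrinogen, the clotting protein that is cut to fibrin, are encoded by Fga, Fgb and Fgg, which lie next to each other on chromosome 2 with no annotated gene between them. In the ileum their levels were far apart. Fga had 0.55, 0.55 and 0.69 FPKM in control, 22.79, 39.68, 3.5 and 6.38 in SAP and 54.01, 14.97, 0.36 and 44.76 in JZL184. SAP libraries 1 and 2 were thus well above SAP libraries 3 and 4, and JZL184 library 3 was below all control libraries. Fgb reached at most 0.41 FPKM in any library (25 reads, JZL184 library 1) and was at 0 in control library 1 and JZL184 library 3. Fgg reached at most 0.4 FPKM (29 reads, SAP library 4) and was listed at 0 in control libraries 2 and 3 and in JZL184 library 3. Of the summed FPKM of the 3 genes, Fga made up 90.8% to 94.8% in control, 93.4% to 99.6% in SAP and 97.1% to 100% in JZL184. In JZL184 library 1, for example, 5473 reads lay on Fga, 25 on Fgb and 10 on Fgg.

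Against control, the log2 fold change of Fga was 4.64 in SAP (SE 1.06, edgeR adjusted p = 0.449, DESeq2 adjusted p = 4.43e-06). It was 3.97 without SAP library 2 and 2.95 without SAP libraries 1 and 2. In JZL184 it was 5.49 (SE 1.65, edgeR adjusted p = 0.0947). Without JZL184 library 3 the latter was 5.90 and passed the edgeR threshold. Between JZL184 and SAP it was 0.88 (SE 1.07, edgeR adjusted p = 0.639), where it was 1.29 without JZL184 library 3, 1.58 without SAP library 2 and 2.56 without SAP libraries 1 and 2. Too few reads lay on Fgb and Fgg for edgeR's filter in both comparisons with the SAP group. Against control, JZL184 gave 2.18 for Fgb (SE 1.29, edgeR adjusted p = 0.312) and 3.77 for Fgg (SE 1.53, edgeR adjusted p = 0.165), from 6 and 2 reads in the control libraries together. Per read counted, the JZL184 over control ratio of Fgg was 15.3, with a 95% exact interval of 3.97 to 131 for counting error alone.

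The promoter windows of the 3 genes (RefSeq, GRCr8) are shown because these neighbours differed so much in RNA. They lie at chr2:170671919-170672218 for Fga (plus strand, the first of 2 start sites), chr2:170700826-170701125 for Fgb (minus strand) and chr2:170652833-170653132 for Fgg (plus strand), with capitals as above.
Fga: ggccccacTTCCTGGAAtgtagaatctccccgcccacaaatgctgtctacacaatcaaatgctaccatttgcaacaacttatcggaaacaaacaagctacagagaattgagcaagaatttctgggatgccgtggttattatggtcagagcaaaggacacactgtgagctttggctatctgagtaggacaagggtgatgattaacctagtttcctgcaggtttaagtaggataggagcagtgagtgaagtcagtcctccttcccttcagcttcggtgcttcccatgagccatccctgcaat
Fgb: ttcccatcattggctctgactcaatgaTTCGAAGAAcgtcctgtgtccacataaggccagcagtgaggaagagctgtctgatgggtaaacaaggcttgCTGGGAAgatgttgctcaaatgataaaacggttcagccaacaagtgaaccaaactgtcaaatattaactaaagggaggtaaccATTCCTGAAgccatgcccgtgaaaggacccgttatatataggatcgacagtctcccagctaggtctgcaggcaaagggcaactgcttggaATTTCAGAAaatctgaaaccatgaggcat
Fgg: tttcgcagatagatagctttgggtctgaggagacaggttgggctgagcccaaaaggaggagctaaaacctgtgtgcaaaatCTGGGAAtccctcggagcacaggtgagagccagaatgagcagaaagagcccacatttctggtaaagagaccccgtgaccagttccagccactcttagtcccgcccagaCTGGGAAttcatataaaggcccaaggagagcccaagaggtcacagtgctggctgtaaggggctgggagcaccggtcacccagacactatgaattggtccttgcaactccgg
Fga held 1 match, to the STAT3 motif 242 bases before its start, and its second start site held none. Fgb held a STAT3 motif, an IL-6 element and 2 C/EBP motifs, and Fgg held 2 IL-6 elements. Whether these matches bear on the RNA levels was not tested.

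**Figure D2:**
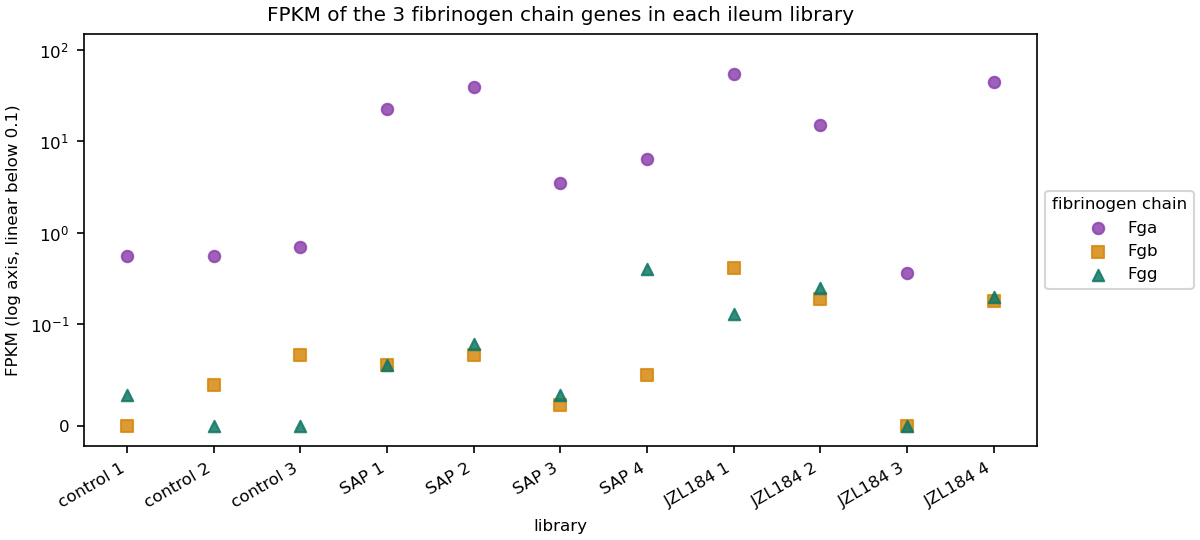
FPKM of Fga (circles), Fgb (squares) and Fgg (triangles) in each library, on an axis that is logarithmic above 0.1 and linear below it. Fga lies above both other chains in every library and ranges from 0.36 to 54.01, while Fgb and Fgg never exceed 0.41.

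Within each group the members kept a wide order of mean FPKM. In control, Lcn2 (2.54 ± 1.01, SD, n = 2) and Cp (2.22 ± 1.26) came first and did not differ beyond their spread, followed by Serpina3n (0.75 ± 0.44), Ptx3 (0.74 ± 0.51) and Fga (0.62 ± 0.099), which also overlapped. In SAP, Serpina3n (64.7 ± 30.5, SD, n = 4) and Lcn2 (64.4 ± 30.8) were level at the top, before Ptx3 (24.7 ± 12.3), Fga (18.1 ± 16.7) and Cp (7.81 ± 5.12). Orm1 (3.31 ± 2.41) and Hp (3.27 ± 2.13) were level below them. In JZL184, Lcn2 (310.29 ± 171, SD, n = 4) stood alone. Serpina3n (32.1 ± 19.1), Ptx3 (32.0 ± 19.4), Fga (28.5 ± 25.1) and Orm1 (23.3 ± 13.1) lay within their spread of each other, as did Hp (13.6 ± 12.1) and Cp (5.23 ± 1.14). A2m, Fgb and Fgg held the 3 lowest places in SAP and JZL184. Orm1 took place 8 in control, 6 in SAP and 5 in JZL184.

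Between SAP and control, all 8 members that passed the filter on low counts had higher normalized counts in each SAP library than in each control sample, where 10.1% of the 16029 genes tested did. The choice of the members fixes much of such a count, so nothing is read from it. Their log2 fold changes ran from 1.05 (A2m) to 6.26 (Serpina3n), with a median of 4.58 beside 0.06 over all genes. EdgeR's quasi-likelihood test called 0 members higher at an adjusted p below 0.05 and a fold above 2, and 0% of all genes, while all 8 had an unadjusted p below 0.05, as 1457 genes had. DESeq2 called 6 members higher (Fga, Hp, Lcn2, Orm1, Ptx3 and Serpina3n), and 0.795% of all genes. The edgeR count was also 6, for the same genes, once SAP libraries 1 and 2 were left out (51 genes higher among 15362), and 0 without SAP library 2 alone.

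Between JZL184 and control, edgeR called 6 of the 10 members higher, against 1.02% of all 15916 genes tested. These were Orm1 (log2 fold change 7.82, SE 0.93, edgeR adjusted p = 0.0144), Lcn2, Ptx3, Serpina3n, A2m (2.45, SE 0.47, edgeR adjusted p = 0.0427) and Hp (4.96, SE 0.95, edgeR adjusted p = 0.0436). The median over the 10 was 5.18, beside 0.08 over all genes. DESeq2 added Fga and Cp to the same 6, which made 8 members beside 6.3% of all genes. Normalized counts of 7 members, the 6 and Cp, were higher in every JZL184 library than in every control sample, as were those of 18.9% of all genes, and without JZL184 library 3 those of all 10 members and of 3528 of 15916 genes. Of the members so added, Fgb and Fgg passed the filter on low counts only through their JZL184 reads. Both had 0 reads in JZL184 library 3, so nothing is read from their place in the count without it. The edgeR count rests on single libraries. It fell to 2 (Orm1 and Hp) without JZL184 library 2, to 0 without either control sample, and was 8 without JZL184 library 3, of 427 genes higher among 15762.

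The comparison between JZL184 and SAP sets rats with the same pancreatitis side by side, with and without the inhibitor. It shares the SAP libraries with the first comparison, so that a high SAP value moves both, and the JZL184 libraries with the second. Of 8 members tested, Orm1, Lcn2, Hp and A2m had higher normalized counts in every JZL184 library than in every SAP library, where 6.32% of the 15308 genes tested did. The others, Fga, Ptx3, Cp and Serpina3n, overlapped. Here edgeR called 0 members and 0% of all genes higher, with 4 members and 3267 genes at an unadjusted p below 0.05. DESeq2 called Orm1, Lcn2, Hp and A2m, 4 members beside 3.57% of all genes, and without JZL184 library 3 it called 5 members, of 409 genes higher among 17774. The one added was Fgb, which had 12 reads in all SAP libraries together and did not pass edgeR's filter. The median log2 fold change of the 8 was 1.15, beside -0.05 over all genes. With all libraries, those 4 had log2 fold changes from 1.43 to 3.05 and the other 4 tested from -0.81 to 0.88, but Fga crossed this gap without SAP libraries 1 and 2 or SAP library 2, as given above, and Hp and A2m came down to 1.31 and 1.28 without JZL184 library 2.

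**Figure D3:**
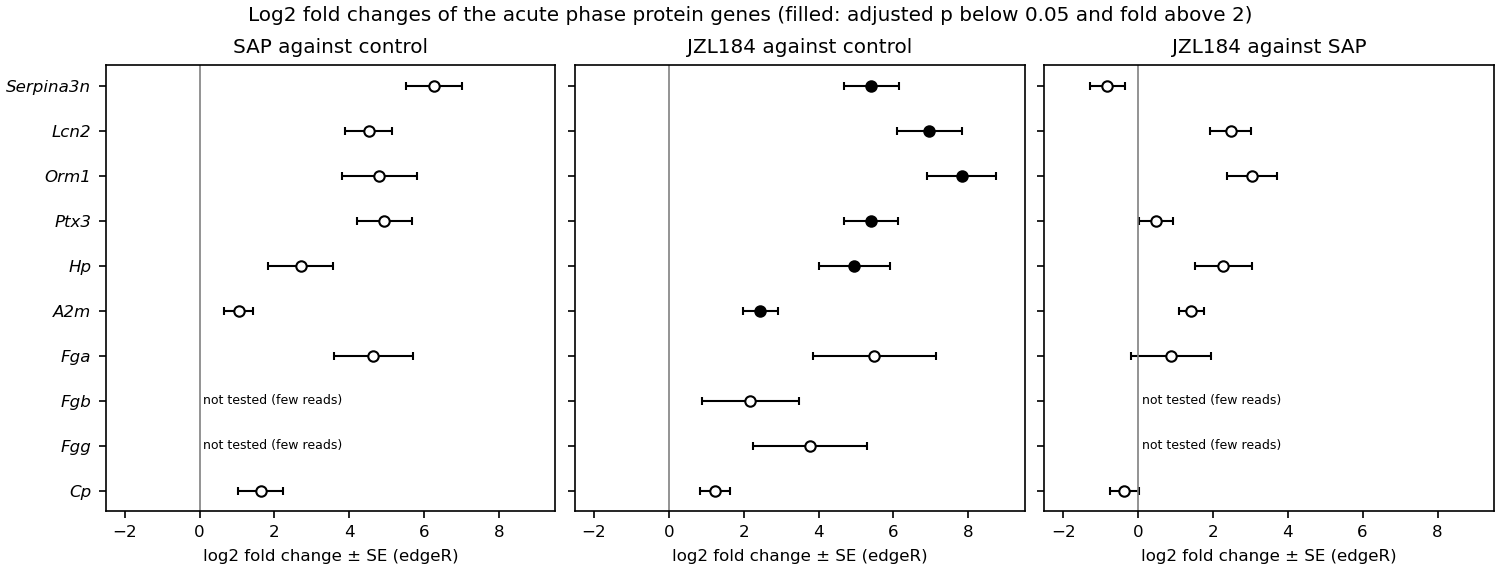
Log2 fold changes (points) with their standard errors (bars) from edgeR for each member in the 3 comparisons, where filled points passed an adjusted p below 0.05 with a fold above 2. In JZL184 against control 6 points are filled and in the other comparisons 0, and in JZL184 against SAP the points for Serpina3n (-0.81) and Cp (-0.37) lie below 0.

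Other genes for acute phase and related plasma proteins were taken from a list of 49, of which 42 were in the FPKM table and 18 of these stayed below 1 FPKM in all libraries. EdgeR called 0 of 26 tested between SAP and control and 0 of 27 between JZL184 and SAP. Between JZL184 and control it called 7 of 30. Among those higher in JZL184 were Mt2A, a metallothionein that binds zinc (log2 fold change 5.45, SE 0.77), Cfb, complement factor B (2.84, SE 0.40), Sod2, the mitochondrial superoxide dismutase (2.58, SE 0.43), Timp1, an inhibitor of metalloproteinases (2.57, SE 0.40), and Fn1, fibronectin (2.05, SE 0.36). Rbp4, the plasma carrier of retinol and a protein that falls in the acute phase, was lower (-1.91, SE 0.30). Their edgeR adjusted p lay between 0.0194 and 0.0357. DESeq2 called Cfb, Fn1 and C9, the pore-forming complement protein (2.77, SE 0.74), higher in SAP than in control. It called Mt1, Mt2A, Sod2 and Hamp, which encodes the iron hormone hepcidin (2.53, SE 0.86), higher in JZL184 than in SAP, and Plg, plasminogen, lower (-2.23, SE 0.72). Mean FPKM of Hamp was 1.18 in control, 0.225 in SAP and 1.155 in JZL184, so JZL184 was near control. DESeq2, but not edgeR, also called Saa4 (5.16, SE 1.40), Lbp, which binds bacterial lipopolysaccharide (2.17, SE 0.62), and Mt1 (2.01, SE 0.57) higher and Plg (-2.17, SE 0.77) and Vtn, vitronectin (-2.03, SE 0.73), lower in JZL184 than in control. Saa4 was low throughout, at 0.02, 0 and 0.02 FPKM in control and 0.77, 0.8, 0.04 and 0.28 in JZL184. Lbp and Vtn did not exceed 1 and 1.08 FPKM in any library.

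Sod2 had 53.29 to 58.59 FPKM in control, 88.76 to 220.01 in SAP and 220.63 to 428.75 in JZL184, ranges that do not overlap, as for Lcn2. Cfb had 4.03 to 4.56 FPKM in control, 6.7 in SAP library 2, 61.42 to 61.98 in the other SAP libraries and 21.72 to 40.27 in JZL184. The most abundant genes of the list that passed no test were Apoa1, Reg3b and Reg3g, with 209.18, 47.67 and 22.73 FPKM in JZL184 library 3 and at least 1919.11, 3917.46 and 1141.49 in the other libraries. Crp and Apcs, the short pentraxins of the liver, were named after their values were seen and reached no more than 0.1 and 0.04 FPKM.

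Of 34 inducers and signal carriers, edgeR called 0 of 32 tested between SAP and control, 0 of 33 between JZL184 and SAP, and 9 of 34 between JZL184 and control, all higher in JZL184. DESeq2 called 2, 15 and 19, all higher in the first group named. Il6, which encodes interleukin-6, had 0, 0 and 0.21 FPKM in control, 2.54, 0.43, 1.89 and 2.38 in SAP and 10.41, 3.38, 9.24 and 3.97 in JZL184, ranges without overlap. Its log2 fold change was 6.18 for JZL184 against control (SE 1.12, edgeR adjusted p = 0.0372). Il22, whose product acts on gut epithelium through STAT3, was at most 0.23 FPKM in control and 1.29 in SAP, and at 18.54, 8.7, 1.22 and 13.56 in JZL184. The others called were Il1a, Il1r1, Il6st, Osmr, Socs3, Cebpd and Fkbp5.

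Socs3, the feedback inhibitor of STAT3 signalling, had 12.75 to 19.21 FPKM in control, 13.96 to 44.17 in SAP and 111.36 to 172.71 in JZL184. JZL184 was clearly above both other groups, which overlapped (log2 fold change 3.01 against control, SE 0.37, edgeR adjusted p = 0.0149). Cebpd, a C/EBP factor, had 11.35 to 24.06, 16.84 to 56.59 and 81.69 to 143.67 FPKM in the 3 groups, and Cebpb had 27.59 to 34.34, 14.15 to 49.01 and 73.93 to 141.37. Il6st, which encodes gp130, had 3.3 to 3.37, 4.8 to 12.96 and 9.05 to 17.34. Stat3 itself had 6.52 to 7.9 FPKM in control, 35.88, 32, 9.33 and 7.75 in SAP and 8.14 to 18.88 in JZL184. SAP libraries 1 and 2 were the high ones for Stat3, as they were for Fga. This was not particular to these genes, since Il6st had 10.98 and 12.96 FPKM there, against 6.04 and 4.8. Cebpb went the other way, with 19.18 and 14.15 FPKM against 45.62 and 49.01. In JZL184 library 3, Stat3 was at 12.37 FPKM where Fga was at 0.36. A link between Stat3 and Fga was not tested. Cebpb was called by DESeq2 alone, against control and against SAP. Il1b, Tnf and Nfkbiz, called by DESeq2 alone between JZL184 and control, had 21.46 to 45.75, 0.91 to 8.52 and 5.85 to 9.67 FPKM in JZL184 and 5.13 to 10.54, 0.52 to 0.92 and 0.91 to 2.67 in control. In SAP they had 8.21 to 33.76, 0.43 to 1.38 and 2.04 to 8.55 FPKM, which overlaps JZL184 for each gene. DESeq2 also called Tnf, but not Il1b or Nfkbiz, higher in JZL184 than in SAP. The other inducers that DESeq2 alone called in some comparison were Bcl3, Il6r, Il11, Lif, Lifr, Nfkbia, Per1, Socs1 and Tsc22d3.

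**Figure D4:**
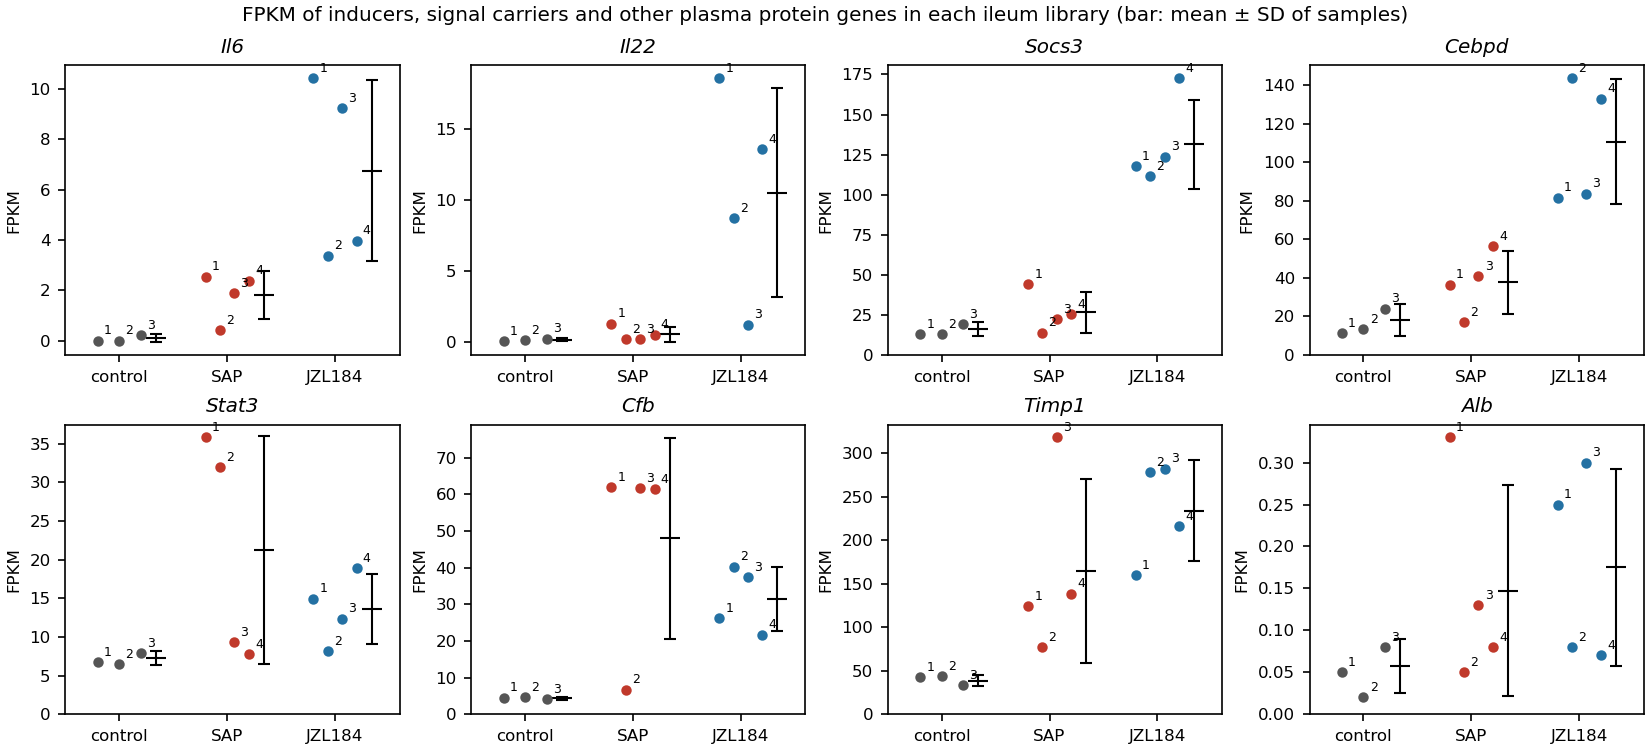
FPKM of the inducers and signal carriers Il6, Il22, Socs3, Cebpd and Stat3, of the plasma protein genes Cfb and Timp1, and of the liver marker Alb in each library, with the mean and SD of each group (control n = 2 after averaging). The 4 JZL184 libraries lie above all others for Il6, Socs3 and Cebpd, Stat3 is highest in SAP libraries 1 and 2, and Alb does not exceed 0.33.

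Markers of other cell types were read beside these values. Markers of liver cells were near 0 except for Apoh, which encodes a lipid-binding plasma glycoprotein. Of 14 hepatocyte markers 11 were in the table, 10 of them below 1 FPKM in every library, and their sum was 0.78 to 2.15 FPKM in control, 1.31 to 4.52 in SAP and 0.64 to 2.94 in JZL184. Apoh made up most of the highest sums, with 3.14 and 3.97 FPKM in SAP libraries 3 and 4, which is in the range of Orm1 and Hp in SAP. Alb, the albumin gene, reached 0.33 FPKM, Mbl2 0.01 and Cyp7a1 0.02. Of 7 exocrine pancreas markers found, 6 stayed below 1 FPKM, and Prss1 was at 0 in all SAP and JZL184 libraries. The exception was Cela1, with 10.69 to 12.04 FPKM in control, 4.88 to 10.73 in SAP and 4.19 to 9.32 in JZL184. The 14 neutrophil markers summed to 3.31 to 4.98 FPKM in control, 11.5 to 90.2 in SAP and 17.6 to 259 in JZL184. S100a8 was at 0 to 0.63, 3.56 to 39.55 and 6.33 to 148.71 FPKM in the 3 groups. In JZL184 most of the sum was S100a8 and S100a9. Csf3r, Cxcr2, Mmp8, Fcnb and Itgam had lower means in JZL184 than in SAP. These were 0.885, 0.27, 1.23, 6.14 and 1.04 FPKM in SAP and 0.4525, 0.125, 0.465, 2.66 and 0.595 in JZL184. Mmp9, Ngp and Camp had higher means in JZL184 than in SAP, and Mpo was below its control mean in both. Elane, Cxcr1 and Ltf stayed at or below 0.27, 0.02 and 0.1 FPKM. JZL184 library 2 had the highest sum (259 FPKM) and 372.23 FPKM of Lcn2, 34.07 of Orm1 and the highest Hp (31.47), JZL184 library 3 had a sum of 17.6 and 264.22 FPKM of Lcn2, and SAP library 1 had 90.2 and 100.3. The part of neutrophils in the values of Lcn2, Orm1 and Hp was not tested.

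The 8 ileal enterocyte markers were all detected and summed to 39870 to 40403 FPKM in control, 10710 to 24810 in SAP and 4908 to 20814 in JZL184. Most of this sum was Fabp6, Krt20 and Fabp2, except in JZL184 library 3, where most was Epcam, while Cdh1 went the other way, at 105.02 to 117.73 FPKM in control, 132.16 to 165.58 in SAP and 151.29 to 193.66 in JZL184, and Epcam lay between 2219.79 and 3813.6 in all libraries. Macrophage markers (8 of 8 detected) summed to 297 to 349, 144 to 366 and 89.8 to 278 FPKM in the 3 groups, mostly from C1qa and C1qb. Cd163 and Mrc1 had 0.6 to 0.77 and 0.34 to 0.78 FPKM in control, and were higher in SAP (2.83 to 13.06 and 2.24 to 5.98) and JZL184 (2.65 to 7.66 and 2.08 to 3.93). Other markers on this list did not follow them. Csf1r and C1qa were lower in JZL184 (1.01 to 2.1 and 55.61 to 137.93) than in control (3.29 to 4.19 and 220.96 to 260.42). Cd68 was higher in SAP (6.41 to 15.38) than in control (2.95 to 4.47), but JZL184 overlapped control (2.61 to 9.06). Adgre1 had 0.25 to 0.46, 0.17 to 2.07 and 0.1 to 0.45 FPKM in the 3 groups. Marco was at 56.25 FPKM in JZL184 library 3 and at most 0.24 in the others. Sums for smooth muscle were 1872 to 2070, 801 to 2023 and 367 to 2115, for fibroblasts 62 to 90.7, 62.7 to 147 and 31.0 to 61.1, and for endothelium 16.5 to 18.3, 22.2 to 29.6 and 26.2 to 32.6. Single markers did not all follow these sums. Among fibroblast markers, the group means were 19.95, 11.2 and 3.72 FPKM for Col1a1 but 9.95, 23.5 and 15.85 for Dcn. Among endothelial markers they were 2.47, 5.40 and 3.58 for Cdh5 but 8.42, 10.8 and 14.7 for Pecam1. Adipocyte markers summed to 238 to 421, 249.6 to 678 and 447 to 763, and blood markers to 121 to 302, 56.4 to 345 and 226 to 623. Most of the adipocyte sum was Fabp4 and Cfd. Adipoq had means of 13.1, 19.8 and 10.3 FPKM in control, SAP and JZL184, Cidec 6.66, 8.02 and 4.33, and Lipe 3.65, 4.41 and 3.30. The mean of Plin1 was highest in SAP and that of Lep in JZL184. Of 7 mesothelial markers, 5 stayed below 1 FPKM. The part of these cell types in the members' values was not tested.

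For each member, the genes most like it were sought by Pearson's r of log2(FPKM + 1) over the 10 samples, among 11092 genes with a mean of at least 1 FPKM. The samples span 3 groups, so r follows the group means as well as the spread within them, and no p is given. Closest to Serpina3n were Spata33 (r = 0.98), Chi3l1, a chitinase-like secreted protein (0.98), and the macrophage mannose receptor Mrc1 (0.94). Lcn2 was followed most closely by Pla1a (0.97), Sod2 (0.96) and Ogfrl1 (0.96). Orm1 was closest to Sod2 (0.98) and to the chemokine genes Ccl3 (0.97) and Cxcl2 (0.97). Nearest to Ptx3 were Rgma (0.96), Rgs1 (0.94) and Pus3 (0.94), and to Hp the chemokine gene Cxcl3 (0.96), Igfbp4 (0.95) and Tgm1 (0.93). A2m was most like Tmem167a (0.92), Mmd (0.92) and Arl14 (0.91). Fga was most like Cebpg (0.95), Cdr2 (0.95) and Gk (0.95), and Cp was most like Plpp3 (0.98), Znrf2 (0.98) and Clpx (0.96). Sod2 is thus the one gene shared by the lists of 2 members, Lcn2 and Orm1. By Spearman's rho in place of r, 0 or 1 of the 3 genes named for each member stayed among its closest 3, so these orders are not firm. Fgb and Fgg held too few reads for a pattern.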

How the data were processed

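RNA of rat ileum was sequenced as stranded mRNA libraries. The authors trimmed reads with FASTX-Toolkit, aligned them to mRatBN7.2 with HISAT2 and deposited a count of uniquely aligned reads per gene, not normalized. The authors also calculated FPKM, deposited to 2 decimals. For the counting tool and the annotation, no name is given in the sources used here. Reads of near-identical genes would be lost by unique alignment.

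Samples were grouped by labels. Reads of control libraries 1 and 2 were summed and their FPKM averaged. Pairs of groups were compared with edgeR 4.0.16 (quasi-likelihood test, TMM, default filter with minimum count 10, R 4.3.3) over all genes. Genes were called at a p below 0.05 after Benjamini-Hochberg adjustment if the fold was above 2 or below 0.5. SE is the log2 fold change divided by the square root of F. DESeq2 1.42.0 and limma-voom (limma 3.58.1) were alternatives. Fits were tested on simulated data. Depth was 26341299 to 33847135 reads on genes.

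The members, the gene lists and the motifs were chosen with earlier results of these data known. Named were all members, listed genes called by edgeR or DESeq2, the 3 most abundant uncalled plasma protein genes, Il6, Il1b, Tnf, Il6st, Stat3, Socs3, Cebpb, Cebpd and Nfkbiz, and the 3 genes most like each member. Counts include 1 listed gene that is not reported here. Nothing in the labels says how litters or cages were shared, so p-values measure the spread between these rats. Splicing was not analysed here.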

Additional observations from a re-analysis of the deposited data

Results flagged for a closer look

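Among 20 groups of 4 libraries, one for each member in SAP and in JZL184, 2 held a library far from the other 3 by Dixon's 95% criterion, and chance gives about 1 in 20. A2m was at 0.31 FPKM in SAP library 4, where the other SAP libraries lay between 0.53 and 0.56. Fgg was at 0.4 FPKM in SAP library 4, from 29 reads, where the others lay between 0.03 and 0.08.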

How the results depend on the processing

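Depth limited Fgb and Fgg, with at most 25 and 29 reads in a library. Between SAP and control, where edgeR called 0 members and 0 genes, it called 3 members and 33 genes with 3 control libraries, 3 and 14 with limma-voom, 3 and 14 without the filter on low counts, 1 and 4 with all 3 groups in 1 fit and 6 and 74 without SAP libraries 1 and 2. DESeq2 called 6 members and 203 genes. In settings chosen after seeing the data, it called 8 and 1469 with 3 control libraries and 6 and 147 without SAP library 2. Between JZL184 and SAP, from 0 and 0, the counts were 4 and 1283 with DESeq2, 2 and 699 with limma-voom, 2 and 207 with all groups in 1 fit, and 27 genes without the filter and 34 with gene length offsets, with 0 members in both. DESeq2, in settings chosen after seeing the data, gave 5 and 806 without JZL184 library 3 and 3 and 612 without SAP library 2. Between JZL184 and control, from 6 members and 343 genes, 2800 genes were called with 3 control libraries, 1956 with DESeq2, 2906 with limma-voom and 929 without the filter. In settings chosen after seeing the data, DESeq2 called 3498 with 3 control libraries and 2008 without JZL184 library 3. All these settings called 7 to 9 members. The cause of these differences was not tested.

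Leaving out each library gave 0 to 1 members and 0 to 3 genes between SAP and control, 0 to 2 members and 0 to 655 genes between JZL184 and SAP (655 without JZL184 library 1) and 0 to 8 members and 0 to 1867 genes between JZL184 and control (0 genes without the summed control sample, 1 without control library 3, 25 without JZL184 library 2, 78 without 4, 860 without 3 and 1867 without 1). Without one library the value for Cp ran from -0.56 to 0.12. Of the members that passed edgeR's filter, the only one whose log2 fold change changed sign was Cp between JZL184 and SAP, at 0.038 with limma-voom, 0.37 without SAP libraries 1 and 2, 0.12 without SAP library 2 and 0.097 with DESeq2 without SAP library 2. In the settings that kept them, Fgg between JZL184 and SAP (-0.48 to 0.63) and Fgb between SAP and control (-0.081 to 0.30) also spanned 0. The other log2 fold changes of members that passed the filter kept their direction, and against the edgeR calls 39 of them passed the threshold anew between SAP and control, 17 between JZL184 and SAP and 13 between JZL184 and control, where 18 lost it. The median over the members between JZL184 and SAP moved from 1.15 to 1.67 without SAP libraries 1 and 2 and to 0.48 without JZL184 library 1.

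By the labels, same-numbered libraries shared only a number. Their deviations from the group means correlated between -0.449 and 0.123 over 16057 genes. So few correlations, in groups this small, cannot show whether such libraries shared anything else. With the number as a replicate block and 3 separate control libraries, edgeR called 1 gene between SAP and control and 1488 between JZL184 and control, where 3 control libraries without the block gave 33 and 2800, and with the block and gene length offsets 7 genes and 2 members, and 1292 genes. Between JZL184 and SAP it called 0 in both.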
